A study of Mus musculus with 10 samples.

Results

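The 10 genes described here encode surface and secreted proteins through which macrophages stimulate or restrain T cells, or receptors that regulate the macrophage itself. They are Cd80, Cd86, Cd274, Pdcd1lg2, Icosl, Cd40, Tnfsf9, Havcr2, Lgals9 and Sirpa. They were picked by name among 46956 loci with a gene symbol. Each has a locus of its own in the deposited tables, and all 10 passed the filter on low counts that left 12500 loci for testing.

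RNA was sequenced from tumour-associated macrophages of Balb/cJ mice carrying 4T1 tumours, a mouse breast carcinoma line, in the mammary fat pad. The sort kept live CD45+ cells with CD11b and F4/80 and without CD8, Ly6C and Ly6G. Control mice (5 samples) received PBS as vehicle. The other mice (5 samples) received JHU083 at 1 mg/kg from day 7 to day 13. JHU083 is a prodrug that releases the glutamine antagonist DON, an inhibitor of glutamine-using enzymes. All tumours were harvested on day 14. The labels number the samples within each group but do not say that each came from a separate mouse, so p-values measure the spread between these samples. The age of the mice is not given in the sources used here. The comparison asks how drug treatment of the mouse changes these transcripts in sorted macrophages.

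A T cell that recognises antigen needs a further signal to become fully active. CD80 and CD86 on the presenting cell give it through CD28 and are also bound by the inhibitory receptor CTLA-4. Other ligands restrain the T cell: PD-L1, encoded by Cd274, and PD-L2, encoded by Pdcd1lg2, engage PD-1. ICOS ligand (Icosl) and 4-1BB ligand (Tnfsf9) are costimulatory, and CD40 receives help from CD40 ligand on T cells. TIM-3 (Havcr2) is an inhibitory receptor with galectin-9 (Lgals9) among its ligands, and SIRP-alpha (Sirpa) restrains phagocytosis when it binds CD47.

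The PD-1 ligand genes are neighbours on mouse chromosome 19 (GRCm38), both on the forward strand. Cd274 (XLOC_017677) spans 29367455 to 29388095 and Pdcd1lg2 (XLOC_017678) spans 29410919 to 29471161 in GENCODE M21. Cd80 (XLOC_014044, 38455561 to 38496335, forward) and Cd86 (XLOC_014588, 36603869 to 36666081, reverse) are both on chromosome 16. Icosl (XLOC_003697) is on chromosome 10, 78069302 to 78083913, forward. Cd40 (XLOC_020100, 165055627 to 165072948) and Sirpa (XLOC_019716, 129592835 to 129632228) are on the forward strand of chromosome 2. Havcr2 (XLOC_005193, 46454935 to 46481255, forward) and Lgals9 (XLOC_007125, 78962974 to 78984946, reverse) are on chromosome 11. Tnfsf9 (XLOC_015564) is on chromosome 17, 57105325 to 57107757, forward. All are annotated as protein coding.

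The 250 bases before the RefSeq start site were found for 6 of the 10 genes (RefSeq, GRCm38.p6). The 4 shown are the PD-1 ligand pair, whose measured changes are compared below, and Cd80 and Havcr2, which were higher in JHU083 and hold a motif match. Capitals mark matches to the motifs named in the next paragraph. The windows are chr19:29367188-29367437 for Cd274, chr19:29410669-29410918 for Pdcd1lg2, chr16:38458683-38458932 for Cd80 and chr11:46454681-46454930 for Havcr2, all on the forward strand. The GENCODE M21 gene of Cd80 begins upstream of this RefSeq start.
Cd274: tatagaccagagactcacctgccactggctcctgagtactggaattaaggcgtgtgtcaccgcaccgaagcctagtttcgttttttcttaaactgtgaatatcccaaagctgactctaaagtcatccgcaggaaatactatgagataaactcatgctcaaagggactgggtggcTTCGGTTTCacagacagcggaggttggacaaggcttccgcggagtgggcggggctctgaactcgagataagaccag
Pdcd1lg2: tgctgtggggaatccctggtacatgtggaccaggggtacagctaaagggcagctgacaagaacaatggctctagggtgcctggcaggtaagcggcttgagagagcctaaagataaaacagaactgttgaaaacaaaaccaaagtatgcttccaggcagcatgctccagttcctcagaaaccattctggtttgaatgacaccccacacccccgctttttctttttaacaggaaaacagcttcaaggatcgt
Cd80: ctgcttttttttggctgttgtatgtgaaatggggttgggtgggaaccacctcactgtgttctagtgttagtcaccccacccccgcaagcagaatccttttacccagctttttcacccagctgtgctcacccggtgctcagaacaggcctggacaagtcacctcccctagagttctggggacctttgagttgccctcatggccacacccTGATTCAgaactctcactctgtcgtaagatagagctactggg
Havcr2: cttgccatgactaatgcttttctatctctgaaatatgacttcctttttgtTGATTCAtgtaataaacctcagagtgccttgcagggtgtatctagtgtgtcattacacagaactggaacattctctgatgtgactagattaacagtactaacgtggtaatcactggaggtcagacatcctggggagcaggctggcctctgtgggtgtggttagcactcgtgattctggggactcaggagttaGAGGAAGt

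The windows were searched on both strands for 5 motifs. A paired interferon regulatory factor site, GAAANNGAA, occurred in the Cd274 window, starting 76 bases before the start site on the reverse strand, and in 7.15% of 32544 promoter windows of this length. The interferon-stimulated response element, which extends that motif by a final A and so overlaps it, occurred in the Lgals9 window and in 2.98% of all windows. The AP-1 motif TGANTCA occurred in the Cd80 window (42 bases before the start) and the Havcr2 window (200 bases before), and in 6.73% of all windows. The PU.1 core GAGGAAG occurred in the Havcr2 and Lgals9 windows and in 10.7% of all windows. The gamma-activated site TTCNNNGAA occurred in 7.04% of all windows and in none of the 6 searched here. The Pdcd1lg2 and Icosl windows held no match to any of the motifs. These are matches of letters in a short window, and binding was not measured.

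Library totals ranged from 11147870 to 14575932 fragments in vehicle and from 13638381 to 15740701 in JHU083. At these depths 3 fragments correspond to 0.196 to 0.261 CPM, the fragment count scaled to a common library size with TMM, which allows for differences in RNA composition. The least abundant of the 10 genes, Tnfsf9, had 64 to 157 fragments per library. Macrophage markers were abundant, with a summed level of 4136 to 4549 CPM in vehicle and 5443 to 6059 in JHU083, and 3 of 7 were higher (Adgre1, Csf1r and Mertk). A split that the labels do not explain crossed the groups. In it, 3 vehicle and 2 JHU083 libraries list no fragment for the ribosomal loci Rn18s-rs5 and Gm42418. These loci took 2.87% to 5.59% of the fragments in the other libraries. Changes within these sets of 5 libraries are therefore given beside the pooled values.

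Of the 10 genes, 5 were higher in JHU083 (Cd80, Cd86, Icosl, Havcr2 and Sirpa), 2 were lower (Cd274 and Tnfsf9) and 3 did not pass the test (Pdcd1lg2, Cd40 and Lgals9), at an adjusted p under 0.05 by edgeR's quasi-likelihood test. Of all loci tested, 36.7% were called, 18.4% higher and 18.3% lower (2296 and 2293 loci, or 1564 and 3141 with scaling to library size only). Within the libraries that list Rn18s-rs5 at 0, 4 of the 10 genes and 8.79% of all loci were called, and within the others 3 of the 10 genes and 21.8% of all loci. The median log2 fold change was 0.15 over the 10 genes and 0.01 over all tested loci. Changes were small, from -0.54 for Tnfsf9 to 0.68 for Cd86 on the log2 scale. The sample groups did not overlap for 5 genes, against 22.3% of all loci tested. A further fit over all 10 libraries, without the 2 ribosomal loci, took the Rn18s-rs5 listing as a covariate. It called the same 5 genes higher and the same 2 lower, with 2082 of all loci higher and 2192 lower. The highest edgeR adjusted p of these 7 genes in that fit was 0.0384, for Cd274.

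**Figure D1:**
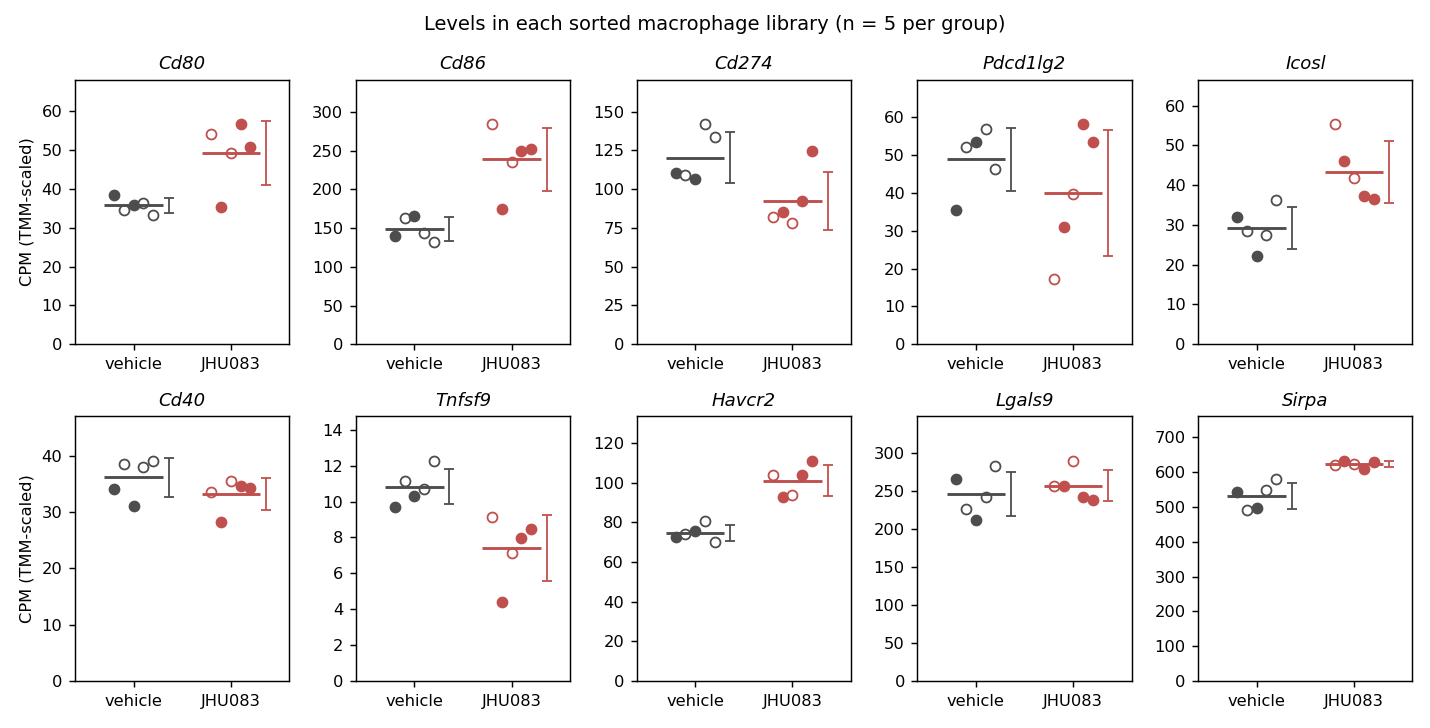
Level of each gene in every library, in TMM-scaled CPM on a linear axis from 0; lines are group means, bars 1 SD (n = 5), and open points are libraries that list Rn18s-rs5 at 0. Vehicle and JHU083 samples are fully apart for Cd86, Icosl, Tnfsf9, Havcr2 and Sirpa, and they overlap for the other 5 genes.

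Both ligands of CD28 and CTLA-4 rose. Cd86 was at 139, 163, 166, 144 and 132 CPM in vehicle replicates 1 to 5, and at 285, 174, 235, 249.6 and 251.9 CPM in the JHU083 replicates. Every JHU083 sample lay above every vehicle sample, and JHU083 replicate 2 was the lowest of its group. The log2 fold change was 0.68 ± 0.11 (SE, edgeR adjusted p = 0.000438), a 1.61-fold higher level. Within the libraries that list Rn18s-rs5 at 0 it was 0.83 (edgeR adjusted p = 0.00856), and within the others 0.55 (edgeR adjusted p = 0.0357).

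Cd80, which binds both receptors more tightly than Cd86 does, was less abundant. Its vehicle values were 38.5, 34.7, 35.8, 36.4 and 33.3 CPM. Its JHU083 values were 54.1, 35.4, 49.2, 56.7 and 50.7 CPM. Here 4 of 5 JHU083 samples exceeded all vehicle samples, and replicate 2 lay inside the vehicle range. The log2 fold change was 0.46 ± 0.11 (SE, edgeR adjusted p = 0.00546). It was 0.57 within the libraries that list Rn18s-rs5 at 0 (edgeR adjusted p = 0.0245) and 0.35 within the others, where it did not pass (edgeR adjusted p = 0.182).

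Dendritic cells also express Cd80 and Cd86. Of 11 dendritic cell markers, 10 could be tested, of which 1 was higher and 1 lower. Cd209a rose from 1.69 ± 0.43 to 7.24 ± 3.50 CPM (SD, n = 5, edgeR adjusted p = 0.000363), and Fscn1 fell from 28.5 ± 10.2 to 10.7 ± 2.03 CPM (SD, n = 5, edgeR adjusted p = 0.00022). The summed level of the list was 56.4 to 82.7 CPM in vehicle and 46.7 to 68.7 in JHU083. Zbtb46 and Flt3, which define classical dendritic cells, were near 1 CPM in both groups (1.27 ± 0.61 and 1.12 ± 0.14 in vehicle, 1.45 ± 0.40 and 1.16 ± 0.48 in JHU083, SD, n = 5). B cells, another source of these ligands, left a summed marker level of 2.72 to 3.77 CPM in vehicle and 3.47 to 5.14 in JHU083. Of 5 B cell markers, Cd79b could be tested and was higher (log2 fold change of 0.51, edgeR adjusted p = 0.0498). The part of these cell types in the Cd80 and Cd86 results was not tested. In sorted bulk samples a change in the make-up of the cells and a change in RNA per cell cannot be told apart.

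The ICOS ligand gene rose as well. Icosl was at 32.1, 28.4, 22.1, 27.4 and 36.3 CPM in vehicle and at 55.4, 46.0, 41.8, 37.2 and 36.4 CPM in JHU083. The groups only just failed to touch, since the lowest JHU083 value and the highest vehicle value, both in replicate 5, were nearly equal. The log2 fold change was 0.57 ± 0.14 (SE, edgeR adjusted p = 0.006). It was 0.67 within the libraries that list Rn18s-rs5 at 0 (edgeR adjusted p = 0.044) and 0.55 within the others (edgeR adjusted p = 0.0436).

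Neither PD-1 ligand gene was called higher. Cd274 was at 110, 109, 107, 142 and 134 CPM in vehicle and at 82.3, 85.1, 78.1, 92.7 and 125 CPM in JHU083. Thus 4 of 5 JHU083 samples lay below all vehicle samples, and replicate 5 lay within the vehicle range. Cd274 fell by 0.38 ± 0.13 on the log2 scale (SE, edgeR adjusted p = 0.0309). Its adjusted p was the highest of the 7 called genes, and the call was lost on leaving out vehicle replicate 4 or 5 or JHU083 replicate 1, 2 or 4 (log2 fold changes of -0.38 to -0.32, edgeR adjusted p up to 0.0815). Within the libraries that list Rn18s-rs5 at 0 the change was -0.67 (edgeR adjusted p = 0.0204), and within the others -0.11 (edgeR adjusted p = 0.628). The difference between these sets was not tested.

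Carcinoma cells can express PD-L1, though the CD45+ CD11b+ F4/80+ sort selects against them, and epithelial transcripts fell in the same direction. Of 8 mammary tumour epithelial markers, 7 were tested and all 7 were lower in JHU083, with a median log2 fold change of -1.78. Their summed level was 279 to 605 CPM in vehicle and 100.1 to 213 in JHU083, and Krt5 was at most 10 fragments in any library. Neutrophil markers were mixed: of 7, 6 were tested, with 1 higher (Csf3r) and 2 lower (S100a8, by 1.40, and S100a9, by 2.18, on the log2 scale, edgeR adjusted p = 0.000872 and 0.000196). Their summed level was 97.2 to 109 CPM in vehicle and 98.2 to 151 in JHU083. Of 5 monocyte markers, 4 were tested, with a median log2 fold change of -0.54 and 1 lower (Vcan, which fell by 1.06, edgeR adjusted p = 0.0129). Their summed level was 317 to 391 CPM in vehicle and 273 to 527 in JHU083. Most of that sum was Ccr2, which did not pass (log2 fold change of 0.14, edgeR adjusted p = 0.508). Ly6g and Ly6c2, whose products the sort selected against, averaged under 1 CPM in both groups. Of 5 eosinophil markers, 3 were tested and 1 was higher (Siglecf), with a summed level of 3.68 to 10.6 CPM in vehicle and 6.64 to 17.4 in JHU083. The part of these cell types in the Cd274 result was not tested.

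Pdcd1lg2 was the most variable of the 10 genes in JHU083. Its vehicle values were 35.6, 52.3, 53.3, 56.9 and 46.3 CPM, and its JHU083 values were 17.3, 30.9, 39.7, 58.3 and 53.6 CPM. The JHU083 samples spanned the whole vehicle range, with a coefficient of variation of 41.8% against 17.1% in vehicle. The log2 fold change of -0.29 ± 0.25 (SE) did not pass (edgeR adjusted p = 0.376). Without JHU083 replicate 1, the lowest of its group, it was -0.10, and without JHU083 replicate 4 it was -0.46. It was -0.86 within the libraries that list Rn18s-rs5 at 0 (edgeR adjusted p = 0.0998) and 0.09 within the others (edgeR adjusted p = 0.82), and the difference between these sets was not tested.

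**Figure D2:**
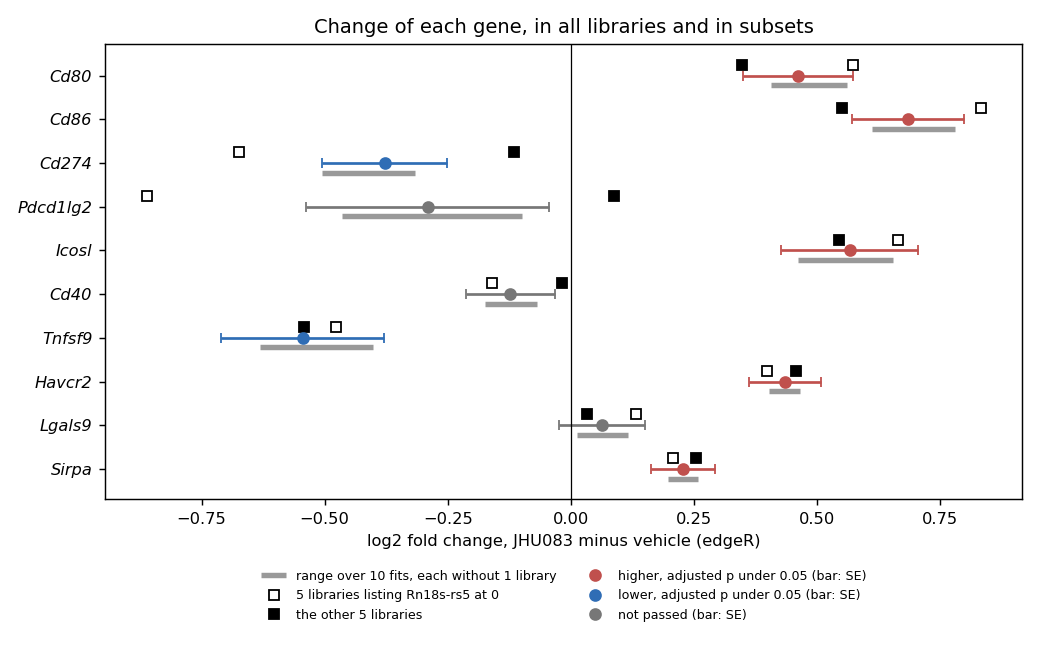
Log2 fold change (JHU083 minus vehicle) of each gene from edgeR; circles with SE bars use all libraries and are coloured by call, grey lines span the fits that each leave out 1 library, and squares are the fits within the libraries that list Rn18s-rs5 at 0 (open) or do not (filled). The 5 genes called higher stay above 0 in all of these fits, and Pdcd1lg2 lies between -0.86 and 0.09.

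Pairs of these genes were compared within each library, where the scaling of the library cancels. The difference in log2 CPM between Cd274 and Cd86 was -0.31 ± 0.31 in vehicle and -1.37 ± 0.34 in JHU083 (SD, n = 5). All 5 JHU083 libraries (-1.79 to -1.01) lay below all 5 vehicle libraries (-0.64 to 0.02). The change of -1.06 had an exact two-sided permutation p of 0.0079, the smallest that 5 against 5 samples allow, and an adjusted p of 0.0317 over the 4 pairs compared. The change was -1.50 within the libraries that list Rn18s-rs5 at 0 and -0.67 within the others, where sets of 5 libraries cannot reach an exact p of 0.05 and the difference between the sets was not tested. Cd274 had a lower CPM than Cd86 in 4 of 5 vehicle libraries and in all 5 JHU083 libraries, and these differences are not per length. 

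The other 3 pairs did not pass. Cd86 minus Cd80 was 2.05 ± 0.16 in vehicle and 2.28 ± 0.09 in JHU083 (SD, n = 5), a change of 0.23 (exact permutation p = 0.0397, adjusted p = 0.0635). Lgals9 minus Havcr2 was 1.71 ± 0.22 and 1.34 ± 0.21 (SD, n = 5), a change of -0.36 (exact permutation p = 0.0476, adjusted p = 0.0635). Cd274 minus Pdcd1lg2 was 1.31 ± 0.28 in vehicle and 1.31 ± 0.60 in JHU083 (SD, n = 5), with an exact permutation p of 1.0000. For that pair the JHU083 libraries ranged from 0.67 to 2.24.

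**Figure D3:**
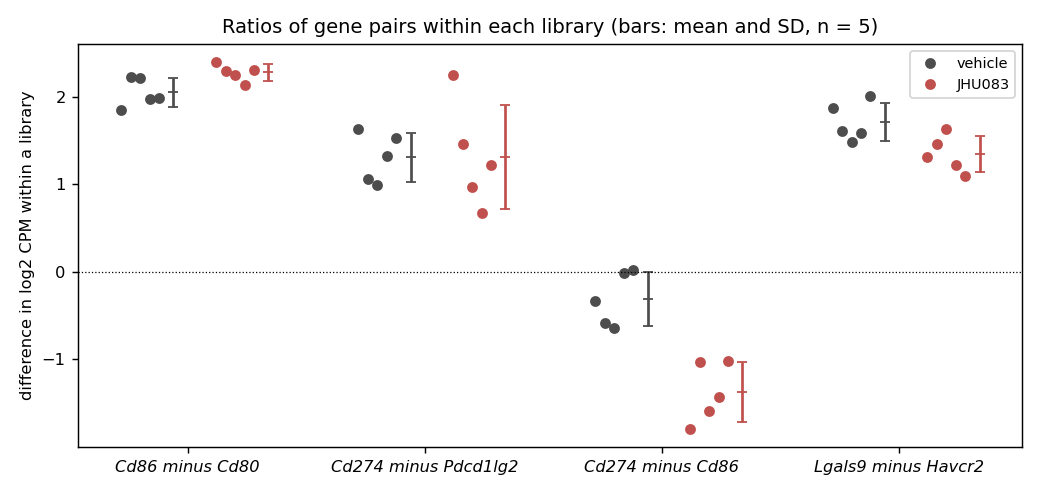
Difference in log2 CPM between 2 genes of a pair in each library, with the group mean and SD beside the points (n = 5). The JHU083 points for Cd274 minus Cd86 lie between -1.79 and -1.01, all below the vehicle points, and the groups overlap for the other 3 pairs.

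Tnfsf9, which encodes the ligand of 4-1BB, was at 9.71, 11.1, 10.3, 10.7 and 12.3 CPM in vehicle and at 9.14, 4.39, 7.16, 7.95 and 8.45 CPM in JHU083. All JHU083 values lay below all vehicle values, and replicate 2 was the lowest. Tnfsf9 fell by 0.54 ± 0.17 on the log2 scale (SE, edgeR adjusted p = 0.0199). The change was -0.48 within the libraries that list Rn18s-rs5 at 0 (edgeR adjusted p = 0.164) and -0.54 within the others (edgeR adjusted p = 0.156), and neither passed.

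Cd40 encodes the receptor for CD40 ligand. It was at 34.1, 38.6, 31.1, 38.1 and 39.1 CPM in vehicle and at 33.5, 28.2, 35.5, 34.6 and 34.3 CPM in JHU083. The groups overlapped, and the log2 fold change of -0.12 ± 0.09 (SE) did not pass (edgeR adjusted p = 0.31). It was -0.16 and -0.02 within the libraries that list Rn18s-rs5 at 0 and within the others.

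Havcr2 rose. It was at 72.8, 74.2, 75.7, 80.7 and 70.2 CPM in vehicle and at 103.8, 92.8, 93.7, 103.8 and 111 CPM in JHU083. Every JHU083 sample lay above every vehicle sample, and the log2 fold change was 0.44 ± 0.07 (SE, edgeR adjusted p = 0.000476). It was 0.40 within the libraries that list Rn18s-rs5 at 0, where it did not pass (edgeR adjusted p = 0.0735), and 0.46 within the others (edgeR adjusted p = 0.022). TIM-3 is also a marker of exhausted T cells. Of 8 T cell markers, 4 could be tested and 1 was higher: Cd4 went from 14.7 ± 1.37 to 31.8 ± 5.98 CPM (SD, n = 5, edgeR adjusted p = 2.07e-05). The summed level of the list was 18.8 to 23.3 CPM in vehicle and 30.8 to 48.9 in JHU083, and Cd4 made up most of it. The other 3 tested markers did not pass (log2 fold changes of -0.29 for Lck, -0.48 for Cd5 and 0.58 for Cd2). The T cell receptor complex genes Cd3d, Cd3e and Cd3g were at most 1.15 CPM in any library. The part of T cells in the Havcr2 result was not tested.

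Lgals9, the most abundant of the 10 transcripts per length in vehicle, was at 266, 226, 211, 242 and 282 CPM in vehicle. In JHU083 it was at 257, 256, 290, 242 and 238 CPM. The groups overlapped in part and the log2 fold change of 0.06 ± 0.09 (SE) did not pass (edgeR adjusted p = 0.592). It was 0.13 and 0.03 within the libraries that list Rn18s-rs5 at 0 and within the others.

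Sirpa encodes the receptor for the CD47 signal against phagocytosis. It was at 544, 491, 497, 550 and 581 CPM in vehicle and at 620, 634, 625, 611 and 630 CPM in JHU083. The JHU083 samples lay close together and all above the vehicle samples. The coefficient of variation was 1.44% in JHU083 and 7.11% in vehicle. The log2 fold change was 0.23 ± 0.07 (SE, edgeR adjusted p = 0.0146). This small increase did not pass within the libraries that list Rn18s-rs5 at 0 (0.21, edgeR adjusted p = 0.307) or within the others (0.25, edgeR adjusted p = 0.137), nor with scaling to library size only (0.15, edgeR adjusted p = 0.0603) or with no filter on low counts (0.23, edgeR adjusted p = 0.099). Sirpa has related genes such as Sirpb1a, so some of its fragments may be shared. Cd47 did not pass the test, with a log2 fold change of 0.06 ± 0.07 (SE, edgeR adjusted p = 0.515). It is named as the ligand of SIRP-alpha.

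Levels between genes were compared per length, with the deposited FPKM. In vehicle the order of mean FPKM was Lgals9 (173 ± 19.7), Sirpa (148 ± 12.2), Cd86 (65.1 ± 6.67), Cd40 (39.9 ± 2.2), Cd274 (32.4 ± 4.34), Pdcd1lg2 (31.4 ± 5.41), Havcr2 (30.4 ± 1.54), Cd80 (22.1 ± 1.16), Icosl (10.6 ± 1.90) and Tnfsf9 (9.80 ± 0.88; SD, n = 5). The sample ranges of neighbours overlapped for Lgals9 and Sirpa, for the run from Cd40 to Havcr2, and for Icosl and Tnfsf9. In JHU083 Cd274 moved from rank 5 to rank 8 with 25.02 ± 5.06 FPKM, while Havcr2 moved from rank 7 to rank 4 with 40.7 ± 3.31 FPKM (SD, n = 5). In JHU083 the range of Cd274 overlapped those of Pdcd1lg2 and Cd80, and that of Havcr2 overlapped that of Cd40. Sirpa and Lgals9 exchanged ranks 1 and 2, with overlapping ranges in both groups. Cd86 stayed at rank 3, with 105.7 ± 16.7 FPKM in JHU083 (SD, n = 5).

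Other ligands of the B7, nectin and related systems were mixed. Of 18 genes, 14 could be tested, of which 4 were higher and 3 lower, with a median log2 fold change of -0.07. Vsig4, a complement receptor that inhibits T cells, rose by 2.56 on the log2 scale, from 1.04 ± 0.35 to 6.22 ± 2.57 CPM (SD, n = 5, edgeR adjusted p = 6.43e-05). Vsir, which encodes the checkpoint protein VISTA, rose from 466 ± 41.5 to 576 ± 53.6 CPM (SD, n = 5, edgeR adjusted p = 0.0106). Tnfrsf14, whose product HVEM binds BTLA, fell from 13.0 ± 0.46 to 9.49 ± 1.19 CPM (SD, n = 5, edgeR adjusted p = 0.00493). Vtcn1, another B7 family gene, had no fragment in any library.

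Among the other TNF superfamily ligands, 11 genes fell on 10 loci, 6 of them tested, with 3 higher and 1 lower and a median of 0.24. Tnfsf18, the ligand of the costimulatory receptor GITR, rose by 2.20 on the log2 scale, from 1.63 ± 0.54 to 7.61 ± 1.78 CPM (SD, n = 5, edgeR adjusted p = 1.49e-05). It went in the opposite direction to Tnfsf9. Tnfsf13b, which encodes the B cell survival factor BAFF, fell by 0.81 (edgeR adjusted p = 0.00146). The locus shared by Tnfsf12 and Tnfsf13 rose by 0.51 (edgeR adjusted p = 0.00109), and its genes cannot be told apart.

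Of 15 receptors listed as inhibitory on myeloid cells, 14 were found and tested, of which 7 were higher and 1 lower, with a median of 0.33. Cd33, a sialic acid receptor, rose from 120 ± 7.31 to 246 ± 26.2 CPM (SD, n = 5, edgeR adjusted p = 1.78e-06). Cd300a, an inhibitory receptor for phospholipids on dying cells, rose from 109 ± 12.6 to 190.2 ± 20.2 CPM (SD, n = 5, edgeR adjusted p = 2.89e-05). Lilra5, whose human counterpart is an activating receptor, had a log2 fold change of 1.07 (edgeR adjusted p = 0.000108). Pilra fell by 0.61 (edgeR adjusted p = 0.00278).

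Receptors that T cells carry for these or other ligands were low, with exceptions. The T cell receptor complex genes Cd3d, Cd3e and Cd3g were at most 1.15 CPM in any library. Which cells held the receptor transcripts below was not tested. Of 12 genes, 7 were tested, of which 2 were higher and none lower, with a median of 0.51. Lag3, a checkpoint receptor for MHC class II, rose from 42.1 ± 6.75 to 83.5 ± 18.5 CPM (SD, n = 5, edgeR adjusted p = 0.000175). Cd28 rose from 0.60 ± 0.48 to 1.96 ± 0.63 CPM (SD, n = 5, edgeR adjusted p = 0.0119). Tnfrsf9, the 4-1BB receptor bound by the Tnfsf9 product, was at 71.6 ± 6.44 CPM in vehicle and 88.1 ± 27.2 in JHU083 (SD, n = 5, edgeR adjusted p = 0.19).

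Of 14 signalling partners, 1 was higher and 5 lower, with a median of -0.07. Traf1, an adaptor of CD40 and 4-1BB, fell by 0.74 (edgeR adjusted p = 0.00219), and Traf5, whose locus also lists a microRNA, rose by 0.60 (edgeR adjusted p = 0.00025). Nfkb2, a subunit of the pathway that CD40 activates, fell by 0.26 (edgeR adjusted p = 0.0244). Ptpn6, which encodes the phosphatase SHP-1 recruited by SIRP-alpha, fell from 307 ± 55.2 to 245 ± 32.2 CPM (SD, n = 5, edgeR adjusted p = 0.0454).

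Of 16 genes listed as regulators of PD-L1, 4 were higher and 4 lower, with a median of -0.01. Irf1, the interferon-induced factor known to act on the Cd274 promoter, fell by 0.93 on the log2 scale, from 182 ± 17.1 to 95.1 ± 14.0 CPM (SD, n = 5, edgeR adjusted p = 1.58e-05). Socs1, an interferon-induced inhibitor of JAK kinases, fell by 1.35 (edgeR adjusted p = 5.17e-05). Ifngr1, a chain of the interferon gamma receptor, rose by 0.53 (edgeR adjusted p = 0.000103), and Cmtm6, which encodes a protein that protects PD-L1 from degradation, rose by 0.27 (edgeR adjusted p = 0.00347). Cmtm6 was named after its values were seen.

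**Figure D4:**
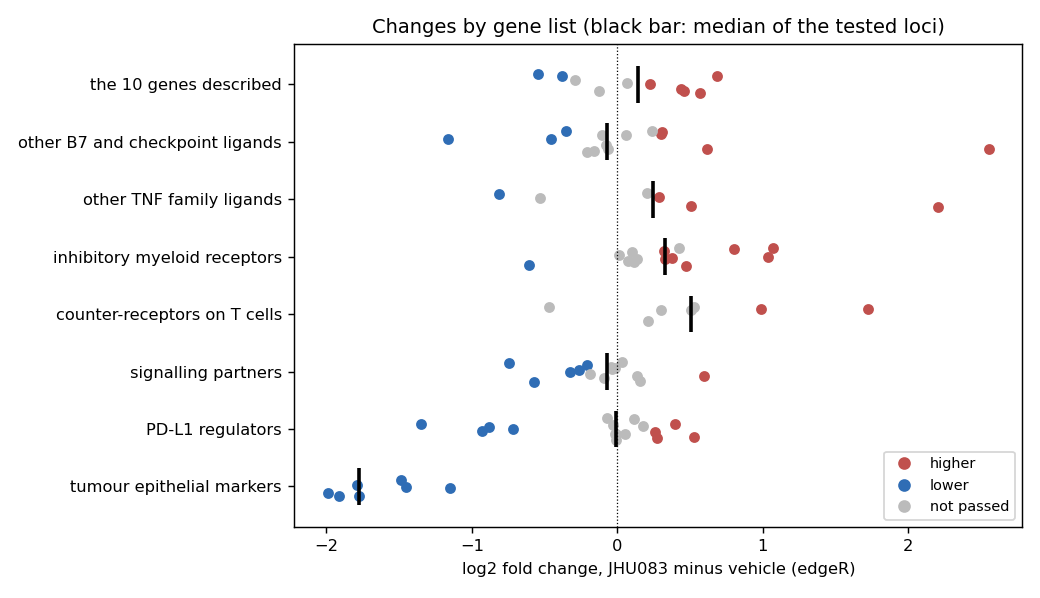
Log2 fold change (JHU083 minus vehicle) of every tested locus among the 10 genes, 6 related gene lists and the tumour epithelial markers, coloured by edgeR call, with the median of the list as a black bar; vertical position within a row carries no meaning. The median is -1.78 for the tumour epithelial markers and lies between -0.07 and 0.51 in the other rows plotted.

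For each gene, the loci whose deviations from the group means ran most alike over the 10 libraries were sought among 7254 loci with an average log2 CPM of at least 4. The Pearson r of the 2 most alike loci lay between 0.92 and 0.98 for all 10 genes. These are the highest values found in that search and serve as a description. They were the locus of 9430076C15Rik and Slc38a9 for Cd274, Pecam1 and Pdgfa for Pdcd1lg2, Kcmf1 and Magoh for Cd80, and Gm16229 and Msmo1 for Cd86. For Icosl they were the locus of Irf9 and Rnf31, and Rfng. For Cd40 they were Abt1 and Ggh, for Tnfsf9 Por and Nufip1, for Havcr2 Rnf146 and Slc7a11, and for Sirpa Grn and Dhrs3. For Lgals9 the most alike locus was Cpsf4.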

How the data were processed

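Polyadenylated RNA was selected and made into libraries with a NEBNext Ultra kit, per the labels' protocols. The submitters' processing notes name bcl2fastq 2.17.1.14, FastQC 0.11.2, TopHat2 2.1.1 and the build GRCm38. The counting program, annotation and strand setting are not given in the sources used here. Each of the 10 tables lists 46957 loci, 1 of them without a symbol. The authors deposited a column headed as raw counts whose values are not whole, which are treated here as estimated counts. Its values are whole multiples (within 0.05) of a step of 0.888 to 1.17 per library for 99.78% to 99.96% of positive values, so fragment counts were recovered by dividing by the step and rounding. Whether a count is a read or a read pair is not given in the sources used here, and it is called a fragment. The other deposited column is headed as normalized and, from its values, is FPKM.

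Loci were filtered with filterByExpr, scaled with TMM and compared in edgeR 4.0.16 (R 4.3.3) by its quasi-likelihood test, with no covariate and Benjamini-Hochberg adjustment over 12500 loci at 0.05. The SE is the log2 fold change divided by the square root of F. Pair ratios use log2 CPM with a prior count of 2 and an exact permutation test over all ways of assigning the labels. The edgeR and permutation steps were tested on simulated data. Alternatives were DESeq2 1.42.0, limma 3.58.1, other scalings and filters, the rounded deposited counts and FPKM. Further alternatives were leaving out each sample, sets of libraries, the Rn18s-rs5 listing as a covariate and a replicate block. The 10 genes and the gene lists were chosen with earlier results of these data known. All 10 genes are named, and up to 6 genes of each other list with the lowest adjusted p; a few genes under these rules are not reported here. Positions are from GENCODE M21. Python 3.11.15 was used.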

Additional observations from a re-analysis of the deposited data

Results flagged for a closer look

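Of 20 groups of 5 values (10 genes in 2 groups), 1 held an isolated sample, and chance flags about 1 in 20 such groups. Cd40 in JHU083 replicate 2 had a log2 CPM of 4.83, whereas its 4 companions lay between 5.07 and 5.16, so the gap to its nearest neighbour was 0.75 of the range of the group. Cd40 had not passed the test with this library, and it did not pass without it (log2 fold change of -0.07).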

How the results depend on the processing

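Of 410 recomputed values for 18 results, 368 kept their direction and call, or for counts stayed within 1.5 times. Cd86 and Icosl kept their call under every alternative run. The cause of the changes below was not tested, except that the fits within sets of libraries hold 5 samples each.

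Sirpa lost its call with library-size scaling (0.15), with no filter on low counts (0.23), and with the replicate block (0.23, edgeR adjusted p = 0.053). Lgals9 changed sign with library-size scaling (-0.0154), which moved the median of all loci by -0.08. That scaling also gave 1564 loci higher and 3141 lower, against 2296 and 2293.

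Within the libraries that list Rn18s-rs5 at 0, 532 loci were higher and 586 lower (8.79% of loci), with 3 of the 10 genes higher and 1 lower; Havcr2 (0.40), Sirpa (0.21) and Tnfsf9 (-0.48) did not pass. Within the others 1276 loci were higher and 1542 lower (21.8%), with 3 of the 10 genes higher and 0 lower; Cd274 (-0.11), Cd80 (0.35), Sirpa (0.25) and Tnfsf9 (-0.54) did not pass, and Pdcd1lg2 changed sign (0.0888). In an alternative chosen after seeing the data, the pair ratios were recomputed within these sets, which cannot reach an exact p of 0.05: Cd274 minus Cd86 was -1.50 and -0.67, and Cd274 minus Pdcd1lg2 changed sign within the others (-0.20).

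Leaving out 1 sample at a time, from 1821 to 2899 loci were higher and from 1900 to 2930 lower. The 10 genes held 5 higher calls in each of these fits and 1 to 2 lower calls. Cd274 ranged from -0.51 to -0.32 and lost its call in 5 of 10 fits. The Cd274 minus Pdcd1lg2 ratio ranged from -0.23 to 0.17 and changed sign in some fits, never passing. Cd86 minus Cd80 ranged from 0.18 to 0.27 and Lgals9 minus Havcr2 from -0.44 to -0.29, passing in some fits. With log2(FPKM + 0.1), Cd86 minus Cd80 passed (0.24, exact permutation adjusted p = 0.0317).

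With the replicate number as a block, Cd274 minus Cd86 was unchanged at -1.06 but could not pass, since 5 pairs cannot reach an exact p of 0.05 (adjusted p = 0.1250). The block gave 1612 loci higher and 1757 lower. It ended the call of Sirpa and no other of the 10 genes. The deviations of same-numbered samples correlated between -0.57 and 0.09, no vehicle sample correlated best with its own number, and the labels do not say that numbers pair mice.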
